A study of Arabidopsis thaliana with 4 samples.

Results

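The genes described here are 25 Arabidopsis thaliana genes whose transcript signal was high in erf6-1 plants after high light, both against untreated erf6-1 plants and against wild-type plants given the same light. They were chosen from these data out of 13286 genes that had a probe set of their own. The rule asked for a signal on the high-light erf6-1 array at or above the 75th percentile of all signals pooled (588.1, called the brightness limit below), a ratio of 2 or more to the untreated erf6-1 array and a ratio of 2 or more to the high-light wild-type array. Signals under 100 were raised to 100 before any ratio was taken. Of 28 probe sets that met these limits, 3 were left out by name or chromosome, namely plastid rpl36 and the glycosyltransferase genes UGT76E11 and UGT73C1. Each of the 25 genes was measured by a single probe set that the supplied annotation pairs with no other gene.

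The study measured RNA from plants 3 weeks old on Affymetrix arrays, and 1 array stands for each of 4 groups. These were wild-type Col-0 without treatment, wild-type Col-0 after 2 h of illumination at 2000 µmol m-2 s-1, the erf6-1 mutant without treatment, and erf6-1 after the same illumination. Both genotypes share the Col-0 background. The kind of lesion in erf6-1 and the number of plants behind each RNA are not given in the sources used here. With 1 array per group no difference below has a replicate error or a test, and all values describe these 4 arrays only.

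ERF6 is an ethylene response factor, a plant transcription factor of the AP2/ERF family known from stress and defence signalling. High light delivers more excitation energy to the chloroplast than carbon fixation can use, and reactive oxygen species accumulate. Leaves then change the transcripts of many nuclear genes, among them those for chaperones, antioxidant enzymes and photosynthesis proteins.

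The 22746 probe sets had nearly equal 2% trimmed mean signals of 493 to 495 on the 4 arrays, while the median was 279 and 321 on the untreated arrays and 208 and 207 on the high-light arrays. Leaf markers were bright: the 4 of 7 listed photosynthesis genes with a named probe set (RCA, PSBW, LHCB4.2 and PSAE-1) had summed signals from 81955 on the high-light wild-type array to 199187 on the untreated wild-type array. The root genes PYK10, EXPA7 and EXPA18, 3 of 5 listed, summed to between 16616 and 29570, nearly all of it PYK10. No listed marker with a probe set was at 0. Listed markers of seeds, senescent leaves, guard cells and phloem had no named probe set of their own, so they could not be analysed here. The leaf sum and the root sum were each lower on both high-light arrays than on both untreated arrays. Among the summed genes only EXPA18 went the other way, from 265.5 to 403.5 after light in the wild type. PSAE-1 was nearly level in erf6-1, at 31844 untreated and 30581 after light. The part of both sums in the results below was not tested. In RNA from whole plants, fewer cells of a type and less RNA per cell cannot be told apart.

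The values that chose the 25 genes are given first, as a description. On the high-light erf6-1 array they ranged from 606 for AT5G26610 to 3559.9 for PIFI, with a median of 795; 8 reached 1000 and 1 reached 2000. The median log2 difference was 1.95 between the erf6-1 arrays and 1.31 between the high-light arrays, beside 0.34 and 0.11 over the 2433 named probe sets that also reached the brightness limit on the high-light erf6-1 array. Among those 2433, 24.3% were 2-fold higher in erf6-1 after light and 3.58% were 2-fold higher in erf6-1 than in the wild type after light. The ratio between the high-light arrays was under 2.2 for 10 genes, from 2.2 to under 3 for 7 genes and 3 or more for 8 genes. AT5G11910 was furthest apart, with a signal of 657 in erf6-1 and 53.2 in the wild type, at least 6.57-fold higher.

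The untreated wild-type array was the only one the rule did not use, and it shows that a description of the set as higher in light, and more so in erf6-1, holds for part of it. In the wild type, 8 of 25 genes were at least 2-fold higher after high light, 7 were at least 2-fold lower and 10 stayed within 2-fold. Among the 2433 probe sets of like signal, 18.8% were 2-fold higher and 6% were 2-fold lower in that comparison. Among the 592 of these that were also 2-fold higher in erf6-1 after light, 45.6% were 2-fold higher in the wild type and 1.86% were 2-fold lower. The 592 include the 25 genes, and among the other 567 these shares were 46.2% and 0.705%. The rule asked for a low high-light wild-type signal, which favours low ratios here, so these shares are no test. The median log2 difference of the 25 genes in the wild type was 0.40, beside 0.17 over the 2433. The plot of signals sorts the genes into these 3 sets.

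**Figure D1:**
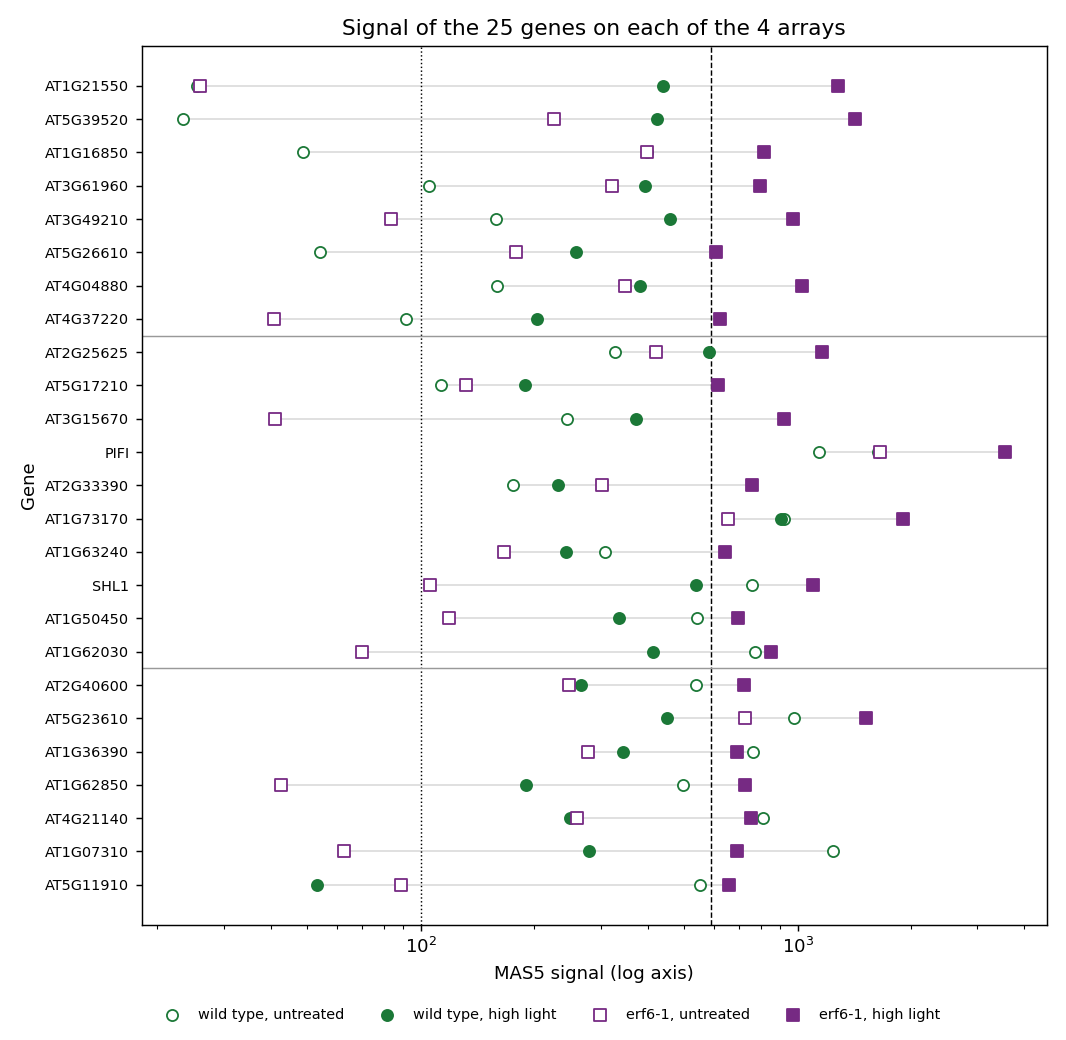
MAS5 signal (log axis) of each of the 25 genes on the 4 arrays, 1 symbol per array, with the wild type as circles, erf6-1 as squares, untreated plants as open symbols and high light as filled symbols. Grey lines separate the 8 genes 2-fold higher in the high-light wild type (top), the 10 within 2-fold (middle) and the 7 that were 2-fold lower (bottom); the dotted line is the floor of 100 and the dashed line the brightness limit. The high-light erf6-1 symbol is furthest right for 22 genes.

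Among the 8 genes that were higher after light in both genotypes, 2 had untreated signals under the floor in both. AT1G21550 had a signal of 25.5 in wild-type and 26.0 in erf6-1 plants without treatment, and of 439.8 and 1279 after light. Its untreated arrays were alike, and both high-light arrays stood far above them, at least 4.40-fold in the wild type and at least 12.8-fold in erf6-1. AT4G37220 had signals of 91.3 and 40.9 without treatment and of 203 and 621 after light, in the same order. It was at least 2.03-fold higher after light in the wild type and at least 6.21-fold higher in erf6-1, and between the high-light arrays it was 3.06-fold higher in erf6-1. AT3G49210 went the same way, from 158 to 458 in the wild type and from 83.3 to 975 in erf6-1. These 3 genes match that description most closely. Each was 2-fold higher after light in both genotypes, and none was higher in erf6-1 before treatment as far as the floor allows. The wild-type light ratio of AT4G37220 moved with the setting, from 1.02 with a floor of 200 to 2.47 after quantile normalisation. AT3G49210 no longer met the rule after quantile normalisation or with a pseudocount of 100.

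The other 5 of the 8 already had more signal in erf6-1 before treatment. AT5G39520 had 23.4 (wild type) and 226 (erf6-1) without treatment, then 425 and 1418 after light. AT1G16850 had 48.8 and 397 without treatment and 399 and 814 after light, so untreated erf6-1 stood at the level of the high-light wild type. AT3G61960 had 105 and 321 without treatment and 393 and 795 after light. In all 3 the genotype difference was present on both kinds of array, and for AT1G16850 and AT3G61960 it was smaller after light than before. For AT5G39520 the untreated difference, at least 2.26-fold, is a bound and cannot be ordered against the 3.34-fold difference after light. AT4G04880 had 159.5 and 349 without treatment and 383 and 1029.8 after light, with erf6-1 ahead by 2.19-fold and 2.69-fold. AT5G26610 had 53.9 and 178.5 without treatment and 258.5 and 606 after light, with erf6-1 ahead by at least 1.78-fold and by 2.35-fold.

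Of the 10 genes within 2-fold in the wild type, PIFI (AT3G15840) was the brightest and is 1 of only 2 in the whole set with a gene name in the supplied annotation. PIFI is a chloroplast protein named for the post-illumination increase of chlorophyll fluorescence, which it is required for, and it acts in chlororespiration, where the plastid NDH complex reduces plastoquinone. Wild-type plants had signals of 1143 untreated and 1636.5 after light, and erf6-1 plants had 1654 untreated and 3559.9 after light. The high-light erf6-1 array thus stood apart while the other arrays lay within 1.45-fold of the lowest. Between the high-light arrays PIFI was 2.18-fold higher in erf6-1, and after light it was 2.15-fold higher in erf6-1 and 1.43-fold higher in the wild type.

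SHL1 (AT4G39100, SHORT LIFE) is the other named gene and encodes a nuclear protein that reads histone marks. Wild-type plants had signals of 756 untreated and 536 after light, and erf6-1 plants had 106 untreated and 1098 after light. It was 10.4-fold higher after light in erf6-1, and the untreated erf6-1 array was the one that stood apart, 7.15-fold below the untreated wild type. Between the high-light arrays it was 2.05-fold higher in erf6-1, close to the limit of the rule.

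AT1G62030, AT1G50450 and AT3G15670 had a similar order of arrays, with untreated erf6-1 lowest. AT1G62030 had signals of 773 and 414 in the wild type, untreated and after light, against 69.8 and 849.5 in erf6-1. AT1G50450 had 540.2 and 336 in the wild type against 119 and 693 in erf6-1. AT3G15670 had 245.0 and 372 in the wild type against 41.1 and 923 in erf6-1. The high-light erf6-1 signal was above the untreated wild-type one in all 3, by a wide margin only for AT3G15670.

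The remaining 5 genes within 2-fold in the wild type, beside PIFI, differed by less than 2-fold between the untreated arrays and were set apart by the high-light erf6-1 array. AT5G17210 had 113 and 189 in the wild type, untreated and after light, and 132 and 614 in erf6-1. AT2G33390 had 176 and 232 in the wild type and 303 and 758 in erf6-1. AT1G73170, the second brightest of the 25, had 919 and 904 in the wild type and 654 and 1899 in erf6-1. For this last gene the wild-type arrays were nearly equal. AT1G63240 had 308 and 243 in the wild type and 166 and 640.2 in erf6-1. AT2G25625 had 327 and 581 in the wild type and 421 and 1163 in erf6-1, and its ratio of 2.00 between the high-light arrays was the lowest of the 25.

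The 7 genes that were 2-fold lower after light in the wild type went opposite ways in the 2 genotypes. AT5G11910 had a signal of 549.9 in the untreated wild type and 53.2 after light, at least 5.50-fold lower. In erf6-1 it had 88.5 untreated and 657 after light, at least 6.57-fold higher. AT1G07310 had 1240.0 and 279 in the wild type, 4.45-fold lower, and 62.4 and 690.3 in erf6-1, at least 6.90-fold higher. The high-light erf6-1 signals of both genes were of the order of the untreated wild type, above it for AT5G11910 and below it for AT1G07310.

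AT1G62850 had signals of 496 and 191 in the wild type, untreated and after light, and of 42.6 and 723 in erf6-1. AT4G21140 had 808 and 249 in the wild type and 259.9 and 751 in erf6-1. AT2G40600 had 538 and 266 in the wild type and 247 and 721 in erf6-1. In these 3 genes, as in the former 2, the high-light wild type and untreated erf6-1 were the low arrays. AT1G36390 had 763 and 344 in the wild type and 278 and 689 in erf6-1, with the same 2 arrays low. AT5G23610 alone among the 7 was within 2-fold between the untreated arrays, with 979.9 and 451 in the wild type and 725 and 1518 in erf6-1.

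**Figure D2:**
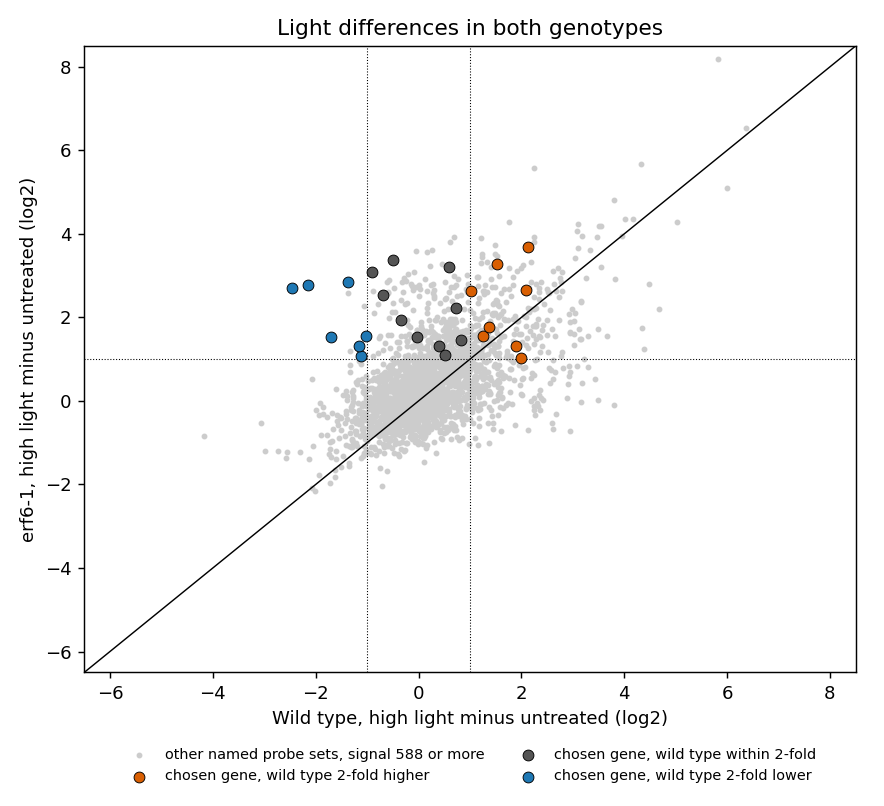
Log2 difference between high light and untreated in the wild type (x axis) and in erf6-1 (y axis), on signals with a floor of 100. Grey points are the other named probe sets that reached the brightness limit in high-light erf6-1; orange, dark grey and blue points are the 8, 10 and 7 chosen genes that were 2-fold higher, within 2-fold and 2-fold lower in the wild type. Dotted lines mark 2-fold, and the diagonal marks equal differences: AT1G16850 and AT3G61960 lie below it.

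Between the untreated arrays, 10 of the 25 genes were at least 2-fold lower in erf6-1 than in the wild type and 4 were at least 2-fold higher, beside 10.2% and 8.55% of the 2433 probe sets of like signal. Among the 592 probe sets 2-fold higher in erf6-1 after light the shares were 33.1% and 5.57%. A low untreated erf6-1 signal helped a gene to enter the set, so the count on the lower side is set partly by the rule. The 10 lower genes were 6 of the 7 that were 2-fold lower in the high-light wild type and 4 of the 10 within 2-fold there. AT1G07310 was at least 12.4-fold lower in untreated erf6-1 and AT1G62030 at least 7.73-fold lower. These are bounds, as are those of AT5G11910, AT1G62850 and AT3G15670, and give no order. Among the other 5, SHL1 had the largest measured difference. The 4 higher genes, AT5G39520, AT4G04880, AT1G16850 and AT3G61960, were all among the 8 that were higher after light in the wild type. The count of 4 moved with the setting, to 0 with a floor of 200, to 2 with equal medians or quantile normalisation, to 3 with a pseudocount of 100 and to 5 with a floor of 50. Of the other 11 genes, AT1G21550 and AT4G37220 were under the floor on both untreated arrays and have no ratio.

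**Figure D3:**
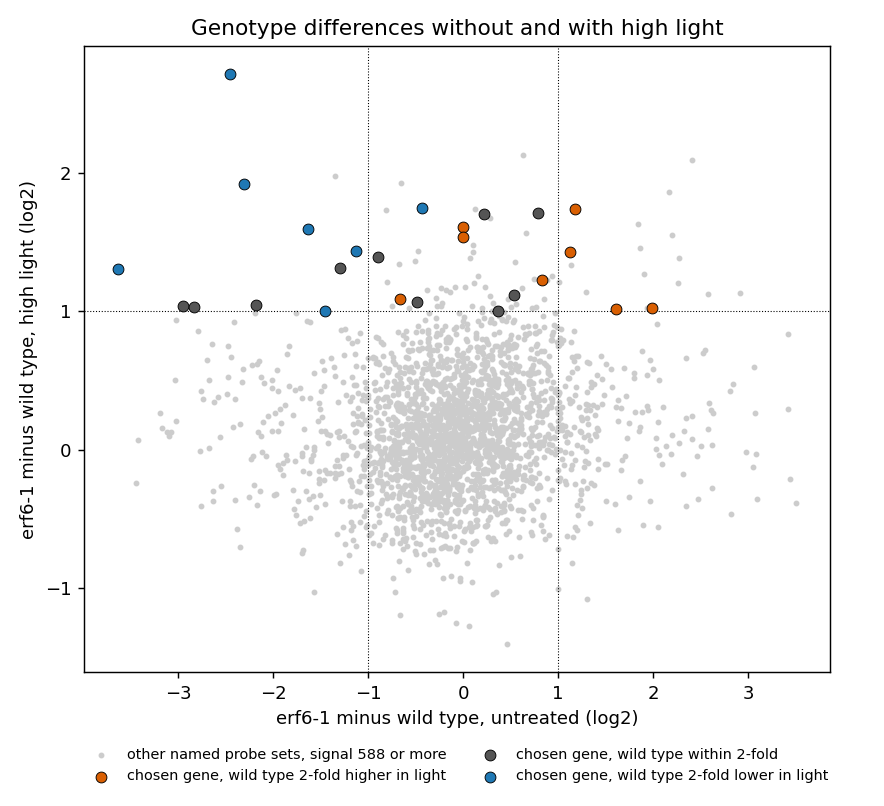
Log2 difference between erf6-1 and the wild type in untreated plants (x axis) and after high light (y axis), on signals with a floor of 100, with the colours of the plot of light differences. All 25 chosen genes lie above the dotted line at 1 on the y axis because the rule put them there, whereas on the x axis they spread from -3.63 for AT1G07310 to 1.99 for AT1G16850, both bounds, with AT1G21550 and AT4G37220, under the floor on both untreated arrays, drawn at 0.

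The light difference in erf6-1 minus that in the wild type could be given a value or a bound for 23 of the 25 genes. It came to 2-fold or more for 15 of them and to less for 8. The share at 2-fold or more was 15.3% of the probe sets of like signal. It was 40.6% of those that were also 2-fold higher in erf6-1 after light. The rule asked for low untreated erf6-1 and low high-light wild-type signals, which favours large values here, so these shares are no test. The log2 values ran from -0.96 for AT1G16850, an upper bound, to 5.18 for AT5G11910, a lower bound. For AT3G61960 the value was -0.60, so this gene and AT1G16850 were higher in high-light erf6-1 without a larger fold response there. The values of AT5G39520 (0.56) and AT5G26610 (0.39) are upper bounds set by the floor, so the same may hold for them. PIFI stood at 0.59, AT2G25625 at 0.64 and AT2G33390 at 0.92. At the other end, below AT5G11910, AT1G07310 stood at 4.94 and AT1G62850 at 4.23, both lower bounds, AT1G62030 at 3.99 as a lower bound and SHL1 at 3.87. Each such value adds the errors of 4 arrays.

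Sets chosen by related rules are given for description. The mirror rule, which asks for a high-light wild-type signal at or above the brightness limit, 2-fold higher than untreated and 2-fold higher than high-light erf6-1, found 32 genes. Their median log2 difference was 1.63 in the wild type and -0.28 in erf6-1, with 1 gene 2-fold lower and 7 genes 2-fold higher in untreated erf6-1. The 25 genes had 0.40 and 1.95 for the same differences, with 10 lower and 4 higher. Each rule favours a low untreated signal in its own genotype, so opposite values are partly set by the rules and nothing is read from them. A further 261 genes were 2-fold higher after light in both genotypes and within 2-fold between the high-light arrays. Their median signal was 1761 on the high-light erf6-1 array against 795 for the 25, and 11.9% of them were 2-fold lower in untreated erf6-1. The difference between these sets was not tested.

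Each limit of the rule left out probe sets that met the others. The signal limit and the erf6-1 light ratio were met by 592 named probe sets, of which 567 failed the ratio between the high-light arrays. Both ratio limits were met by 299 named probe sets, of which 274 had a high-light erf6-1 signal under the brightness limit, with a median of 277. Of these dimmer probe sets, 78.1% were under the floor on the untreated erf6-1 array, against 32.0% of the 25 and 2.92% of the 2433. The erf6-1 light ratio favours a low untreated signal, the more so for dim probe sets, so nothing is read from these shares. In the wild type 4 of the 274 were 2-fold higher after light and 102 were 2-fold lower. The limits kept their high-light wild-type signals low, with a median of 67.6, under the floor. Both counts are therefore largely set by the limits, and nothing is read from them. Just outside the signal limit were AT4G11410 at 584.5, AT1G04910 at 578.5 and AT3G26460 at 577, and just inside were AT5G26610 at 606, AT5G17210 at 614 and AT4G37220 at 621. For the erf6-1 light ratio, ATSRL1 (AT5G37370) at 1.93, AT2G01220 at 1.88 and AT5G52960 at 1.87 were just outside, and AT1G16850 at 2.05, AT5G23610 at 2.09 and PIFI at 2.15 just inside. For the ratio between the high-light arrays, AT1G49310 and AT1G07870 at 1.98 and AT4G23050 at 1.93 were just outside, and AT2G25625 at 2.00, AT1G36390 at 2.01 and AT3G61960 at 2.02 just inside.

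The supplied annotation gives little on what these genes do. A symbol other than the locus number was found for PIFI and SHL1 only, so 92.0% carried a locus number alone, against 83.3% of the 2433 probe sets of like signal. Of 13 function classes searched by words in symbols and synonyms, the photosynthesis and chlorophyll class held PIFI and the other 12 held none of the 25, which says little where the words are missing. The genes lay on all 5 nuclear chromosomes, with 9 on chromosome 1, 3 on chromosome 2, 4 each on chromosomes 3 and 4, and 5 on chromosome 5. The closest were AT3G15670 and PIFI with 16 protein-coding genes between them, and no 2 of the 25 were neighbours. Of 50 adjacent gene positions 24 had a named probe set. None of these was 2-fold higher in erf6-1 than in the wild type after light, beside 3.58% of the 2433, and 1 was 2-fold lower. The neighbours were not held to the brightness limit as the 2433 were, so that share is not on a like base. With so few genes, nothing is read from these counts. Some of these neighbours were under the floor on both high-light arrays and have no ratio. The neighbour nearest to 2-fold was AT5G11900, beside AT5G11910, with 839.8 in erf6-1 and 424 in the wild type after light. The median gene length was 2080 bases, against 2069 over the 2433.

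Scaling changed which genes met the rule. After quantile normalisation 26 genes met it, of which 15 were among the 25, and with a pseudocount of 100 in place of the floor 14 met it, all among the 25. With equal array medians 71 genes met it, all 25 included. The 13 genes that met it under all 6 settings were AT1G07310, AT1G21550, AT1G62850, AT1G63240, AT2G33390, AT2G40600, AT3G15670, AT4G04880, AT4G21140, AT4G37220, AT5G11910, AT5G17210 and AT5G39520, and PIFI and SHL1 were not among them. The count of genes 2-fold lower in the high-light wild type went from 7 to 4 after quantile normalisation, to 4 with a pseudocount of 100 and to 3 with equal medians. AT1G07310, AT4G21140 and AT5G11910 stayed at least 2-fold lower there under all 6 settings, and AT1G21550, AT3G49210 and AT5G39520 stayed at least 2-fold higher.

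**Figure D4:**
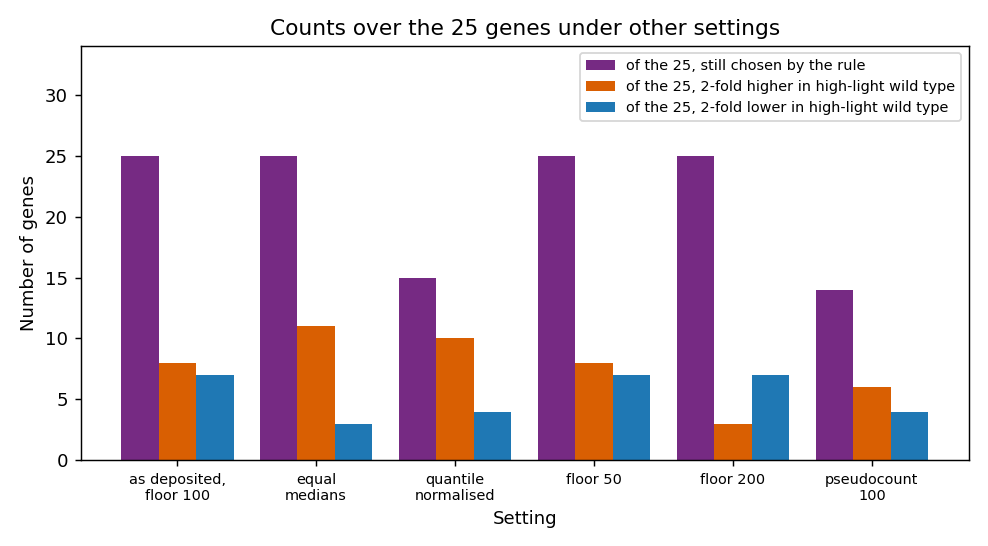
Number of the 25 genes (bars, y axis) that met the rule, that were 2-fold higher and that were 2-fold lower in the high-light wild type, under the main setting and 5 others (x axis). The number that met the rule fell to 15 after quantile normalisation and to 14 with a pseudocount of 100, and the number 2-fold higher in the wild type fell to 3 with a floor of 200.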

How the data were processed

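RNA of Arabidopsis thaliana plants was hybridised to 4 Affymetrix arrays, 1 per group, and sample titles gave the groups. The description of every sample speaks of embryos, contradicts the plant material and was set aside. The deposited values are linear signal intensity, made by the authors with MAS5 per the submitters' processing notes; sources used here do not give its version. Of 22746 probe sets, 14016 were in the supplied probe table (GEO platform annotation), 13513 with 1 gene, and 13436 matched a locus of the RefSeq table (TAIR10.1) through Entrez numbers, covering 13286 genes. After the exclusions by name 13273 probe sets remained.

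Signals were floored at 100, the pooled 30th percentile; the brightness limit is the pooled 75th percentile, 588.1 (the rule drops the decimal, which adds 0 members). A ratio with 1 array under the floor is a bound, written "at least", and none is given where both were. Calls are 2-fold. With 1 array per group there is no test, and precision is limited by the number of arrays. The members, lists and rules were chosen with earlier results of these data known. All members are named; those closest to each limit and genes adjacent on the chromosome follow fixed counts. Alternatives were equal medians, quantile normalisation, floors of 50 and 200, a pseudocount of 100, and other limits in the rule. The code of the rule was run on simulated arrays, which checks the code only and not the genes chosen. Calculations used Python 3.11.15, pandas 2.3.3 and numpy 2.4.6.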

Additional observations from a re-analysis of the deposited data

Results flagged for a closer look

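For 7 of the 25 genes the 2 genotypes went opposite ways after high light. They were at least 2-fold higher in erf6-1 and at least 2-fold lower in the wild type. Of all 592 named probe sets of like signal that were 2-fold higher in erf6-1 after light, 11 (1.86%) were 2-fold lower in the wild type. The 592 include the 25 genes, and of the other 567 only 4 (0.705%) were 2-fold lower there. The rule asked for low untreated erf6-1 and low high-light wild-type signals, which favours this pattern and large differences, so the count of 7 is no test. The erf6-1 light difference less the wild-type one, on the log2 scale, was 5.18 for AT5G11910, 4.94 for AT1G07310 and 4.23 for AT1G62850, all 3 lower bounds. It was 3.23 for AT4G21140, 2.56 for AT2G40600, 2.46 for AT1G36390 and 2.19 for AT5G23610. None of these differences was tested, since each group had 1 array. With equal array medians 3 of the 7, AT5G11910, AT1G07310 and AT4G21140, were still 2-fold lower in the high-light wild type. After quantile normalisation, or with a pseudocount of 100, 4 of the 7 were.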

How the results depend on the processing

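No paired analysis was possible because each group had 1 array and no test was made. The rule found 25 genes as set, 71 with equal array medians, 14 with a pseudocount of 100, 164 at 1.5-fold and 5 at 3-fold, and 8 and 138 with a high-light erf6-1 signal of 1000 or 300. Quantile normalisation gave 26 and either other floor gave 25. The number 2-fold higher in the high-light wild type was 8, but 3 with a floor of 200, which hides differences between dimmer signals; it lay between 6 and 11 under the other 4 settings. The number 2-fold lower in untreated erf6-1 lay between 9 and 11. The median light difference in the wild type was 0.40 and lay between 0.00 and 0.82; equal medians also moved that of the 2433 probe sets of like signal, from 0.17 to 0.60, and that in erf6-1 from 0.34 to 0.97. Counts of genes still chosen, of genes lower in the high-light wild type and of genes higher in untreated erf6-1 were added after the data were seen. Of 79 differences of single genes called at 2-fold, none changed sign under the 5 settings. A floor or a pseudocount cannot reverse the order of 2 signals, so only equal medians and quantile normalisation could have changed a sign. The 79 also include both ratios of each gene that the rule held at 2 or more, so the unchanged signs are no test. With the pseudocount 19 fell under 2-fold, and 15 did after quantile normalisation. The floor of 200 took 10 under it, equal medians took 6 and the floor of 50 took 0. Beyond what each construction shows, the cause was not tested. Single arrays and signals near the floor limit all values: 11 of the 25 genes were under 100 on at least 1 array.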
